A study of Mus musculus with 180 samples.

Results

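The genes described here are 10 regulators of the G1 phase of the cell cycle: the kinases Cdk4 and Cdk6, the D cyclins Ccnd1, Ccnd2 and Ccnd3, the Cdk inhibitors Cdkn1a (p21), Cdkn1b (p27), Cdkn1c (p57) and Cdkn2c (p18INK4C), and Rb1. They were chosen by name and function, with earlier results of these data known. All 10 are among the 14825 genes of the deposited expression table. They were read in single cells of 4 haematopoietic populations from C57BL/6 mice, each cell having been sorted by FACS and made into 1 library. The values are TPM, which scale each transcript by its length and make the listed genes of every cell sum to 1000000.

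The 36 BM HSC (adult haematopoietic stem cells) and 41 WT-MPP (wild-type multipotent progenitors) came from mice 8 weeks old labelled Hoxb5LSL/+, which carry a Hoxb5 transgene behind a stop cassette that stays in place without Cre. The 56 FL HSC (fetal liver haematopoietic stem cells) were taken from embryos of that genotype at Day14.5, gated as positive for Sca1, c-Kit, Mac1, CD150 and CD45.2 and negative for lineage markers. The 47 CD11b+CD48+SK cells (CD11b is Mac1, and SK stands for Sca1+c-Kit+) were of donor origin and were recovered from primary recipients 8 weeks after transplantation of Hoxb5-expressing MPP. The donor cells carry Cre under the Mx1 promoter, the recipients were lethally irradiated CD45.1+ mice, and pIpC was given to these recipients to induce Cre. Hoxb5, transplantation, irradiation of the host and pIpC cannot be told apart in these cells, since the table holds no control MPP that had been transplanted. The sort gate cannot be told apart from them either. CD11b+CD48+SK cells were gated as positive for CD48 and CD11b, while the paper describes its MPP gate as negative for both.

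Passage through G1 is governed by the D cyclins, which bind and activate Cdk4 and Cdk6. The active kinases phosphorylate the retinoblastoma protein Rb1 and release E2F transcription factors, which turn on genes for DNA synthesis. The Cip/Kip inhibitors Cdkn1a, Cdkn1b and Cdkn1c bind complexes of cyclin and kinase, whereas INK4 inhibitors such as Cdkn2c bind Cdk4 and Cdk6 themselves. Adult haematopoietic stem cells are known as mostly quiescent, and Cdkn1c is known as a regulator of that quiescence, while stem cells of the fetal liver are known to divide.

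The labels tie no cell to an animal, so every population is 1 sample and is given with no p-value and no standard error. A gene is called present in a cell at 1 TPM or above, and its share of cells is given with a 95% exact Clopper-Pearson interval, which is for counting error alone. Where no cell had it, the limit given is 3 cells of the total, which is somewhat under the exact upper limit. A difference between populations is that of their mean log2(TPM+1) over cells. Read counts cannot be had from TPM and sequencing depth is therefore unknown. In its place stands the number of genes present, with medians between 3844 per cell in WT-MPP and 5206.5 in FL HSC, and single cells from 2479 to 6791. Values above 0 but below 1 TPM were more frequent in WT-MPP (median 1392 per cell) and BM HSC (1445.5) than in FL HSC or CD11b+CD48+SK cells (699 in both). Actb, B2m, Eef1a1 and Rplp0 were present in all 180 cells, and Gapdh in all but 1.

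Genes of the sort markers were read as a check of the labels. The share with Cd48 was 17.9% in FL HSC, 2.78% in BM HSC, 17.1% in WT-MPP and 100% in CD11b+CD48+SK cells. Slamf1, the gene of CD150, was found in 55.4% of FL HSC and 63.9% of BM HSC, but in 7.32% of WT-MPP and 6.38% of CD11b+CD48+SK cells. Itgam, the gene of CD11b, was found in 36.2% of the cells sorted as CD11b+CD48+SK and in 16.1% of FL HSC. Kit was found in 85.7% of FL HSC, 86.1% of BM HSC, 85.4% of WT-MPP and 70.2% of CD11b+CD48+SK cells. Flt3 was found in 53.6%, 25%, 75.6% and 87.2% in the same order. The shares with Ly6a and Cd34 were 88.9% or more in every population. The source label of FL HSC names bone marrow while their cell type label, which was used, names fetal liver. The globin gene Hbb-b1 was in 98.2% of them against 34.1 to 38.9% of the adult populations. Of the other erythroid genes read, Epor was also most frequent in FL HSC (41.1%). Klf1 (3.57%, against 6.38% of CD11b+CD48+SK cells) and Hba-a1 (1.79%, against 2.44% of WT-MPP) were not. Which label holds was not tested with these genes.

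A difference of 1 or more in size was common over the 10856 filtered genes, that is, genes that 10% or more of any population's cells had at 1 TPM. For CD11b+CD48+SK minus WT-MPP it was reached upwards by 19% of them and downwards by 5.01%, and by 4 and 2 of the 10 G1 genes. For CD11b+CD48+SK minus BM HSC the background was 13.4% upwards and 11.8% downwards, with 3 and 3 of the 10. For CD11b+CD48+SK minus FL HSC it was 4.02% and 20.9%, with 3 and 2. For FL HSC minus BM HSC it was 25.6% and 5.44%, with 2 and 2. For WT-MPP minus BM HSC 17.2% of the filtered genes lay past 1 in either direction and 2.67% upwards, with 6 and 2 of the 10. The G1 genes thus split in direction in each pair. These pairs share populations and are not independent, and all 10 genes passed the filter.

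**Figure D1:**
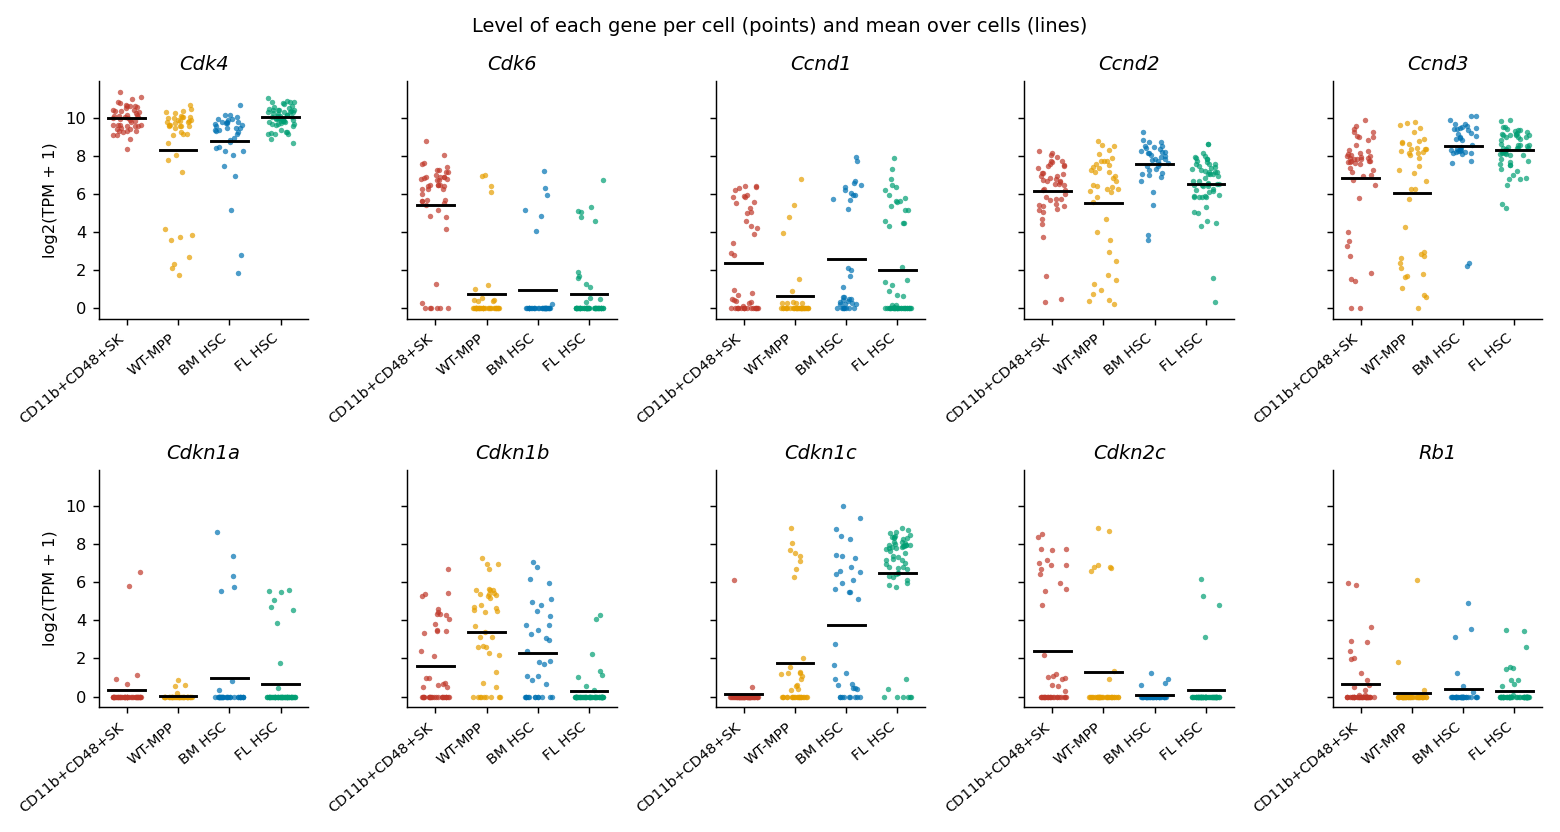
Level of each of the 10 genes per cell, as log2(TPM + 1) on the vertical axis, in 47 CD11b+CD48+SK cells, 41 WT-MPP, 36 BM HSC and 56 FL HSC. Points are cells and black lines the means over cells. Cdk6 was high in most CD11b+CD48+SK cells and at or near 0 in most other cells, Cdkn1c was at or near 0 in all but 1 CD11b+CD48+SK cell with its highest mean in FL HSC, and Cdk4 was at 320 TPM or more in every CD11b+CD48+SK cell.

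Cdk4, at chr10:127063534-127067920 on the plus strand (GRCm38, 6 merged exons), was the most abundant of the 10 genes by median in every population and was present in all 180 cells. In CD11b+CD48+SK cells its level ran from 320 to 2616 TPM with a median of 1016, and in FL HSC from 408 to 2064 with a median of 1027. In WT-MPP it ran from 2.27 to 1609 with a median of 764.5, and in BM HSC from 2.57 to 1608 with a median of 674.7. The populations overlapped over most of this range. WT-MPP and BM HSC also held low cells, 8 of 41 and 3 of 36 being under 100 TPM, and no cell of the other populations lay there. These WT-MPP had few genes present, 2854 to 3610 beside a population median of 3844. The low BM HSC had 2639, 2932 and 4437.

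CD11b+CD48+SK cells exceeded WT-MPP in Cdk4 by a difference of 1.68 and BM HSC by 1.21, and FL HSC exceeded BM HSC by 1.26. CD11b+CD48+SK cells and FL HSC differed by -0.04. The first 3 differences were under 1 in other settings. With log2 of the mean TPM they were 0.68, 0.78 and 0.79, and among cells with 3974 to 4751 genes present, the range that all populations cover (24 CD11b+CD48+SK cells, 17 WT-MPP, 14 BM HSC and 14 FL HSC), they were 0.55, 0.91 and 0.86.

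Cdk6, at chr5:3341485-3531008 on the plus strand, encodes the partner kinase of Cdk4 and has a known part in the exit of haematopoietic stem cells from quiescence. By mean log2(TPM+1) it was the gene of the 10 with the widest gap between CD11b+CD48+SK cells and each other adult population. With log2 of the mean TPM it was not, at 3.06 from WT-MPP, where Cdkn1c was at -4.05, and 3.01 from BM HSC, where Cdkn1c was at -5.5 and Cdkn2c at 5.47. It was present in 11 of 56 FL HSC (19.6%, interval 10.2 to 32.4%), 6 of 36 BM HSC (16.7%, 6.37 to 32.8%), 5 of 41 WT-MPP (12.2%, 4.08 to 26.2%) and 40 of 47 CD11b+CD48+SK cells (85.1%, 71.7 to 93.8%).

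In CD11b+CD48+SK cells the median level of Cdk6 was 85.2 TPM, with a range of 0 to 441. The median was 0 in each other population, and the highest cell there was at 105.1 TPM for FL HSC, 147.9 for BM HSC and 124.5 for WT-MPP. The ranges overlapped, because 6 CD11b+CD48+SK cells were listed at 0 and a few cells elsewhere reached the level usual in CD11b+CD48+SK cells. Among cells with Cdk6 its median was 22.4 TPM for 11 FL HSC, 46.7 for 6 BM HSC, 84.6 for 5 WT-MPP and 87 for 40 CD11b+CD48+SK cells, so that few cells stand behind the first 3 values.

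For Cdk6, CD11b+CD48+SK minus WT-MPP was 4.65, minus BM HSC 4.46 and minus FL HSC 4.68. Of the 10856 filtered genes, 19, 31 and 36 had a higher difference in these pairs. With each of the 10 genes ordered by mean over the populations, there are 30 steps between neighbours, and the step in Cdk6 from CD11b+CD48+SK cells to BM HSC was the 1 that exceeded the larger of both SDs over cells (2.54 and 2.15). In the shared range of genes present the differences were 4.60, 4.80 and 5.73. The order among BM HSC (mean log2 0.94), WT-MPP (0.75) and FL HSC (0.72) lay within the spread over cells. Cdk6 made up 0.434% of the summed TPM of both kinases in FL HSC, 1.56% in BM HSC, 1.42% in WT-MPP and 7.5% in CD11b+CD48+SK cells, and Cdk4 was the higher kinase in each of the 180 cells.

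The summed level of mast cell and basophil markers was also higher in CD11b+CD48+SK cells. Of the 4 listed, 3 are in the table, and their summed level ran from 0 to 9063 TPM (median 143.9) in these cells, from 0 to 303.7 in WT-MPP, from 0 to 105.4 in BM HSC and from 0 to 81.7 in FL HSC. Cpa3 and Mcpt8 were found in 87.2% and 36.2% of CD11b+CD48+SK cells. Mcpt8 was in no cell of WT-MPP or FL HSC, which allows shares of up to 7.32% and 5.36%. The remaining marker, Gzmb, went the other way for the adult populations, with a share of 2.13% in CD11b+CD48+SK cells, 9.76% in WT-MPP and 16.7% in BM HSC, and it was in no FL HSC. Their part in the Cdk6 result was not tested.

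The promoters of both kinases, each at its highest or next to highest mean in CD11b+CD48+SK cells, are shown from RefSeq (GRCm38.p6), 250 bases before to 50 after the start, 5′ to 3′ on the plus strand. They lie at chr10:127063285-127063584 for Cdk4 and chr5:3343643-3343942 for Cdk6. Capitals mark the E-box CACGTG, a motif bound by Myc and related factors, and the GC box GGGCGG, a motif bound by Sp1, on either strand (CCGCCC on the other).
Cdk4: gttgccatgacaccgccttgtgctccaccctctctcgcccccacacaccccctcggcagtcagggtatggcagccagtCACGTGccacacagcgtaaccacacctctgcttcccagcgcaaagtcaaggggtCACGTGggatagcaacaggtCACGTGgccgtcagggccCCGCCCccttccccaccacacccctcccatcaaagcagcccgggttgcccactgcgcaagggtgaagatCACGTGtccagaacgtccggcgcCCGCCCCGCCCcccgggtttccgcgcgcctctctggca
Cdk6: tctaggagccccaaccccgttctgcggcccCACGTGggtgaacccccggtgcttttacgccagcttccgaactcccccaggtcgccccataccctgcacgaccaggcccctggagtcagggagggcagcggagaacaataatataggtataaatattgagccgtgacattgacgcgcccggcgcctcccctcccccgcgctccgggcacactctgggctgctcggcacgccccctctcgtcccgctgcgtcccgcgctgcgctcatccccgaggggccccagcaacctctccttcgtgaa

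The Cdk4 window held 4 E-boxes, at -172, -118, -98 and -11 from the start, and the Cdk6 window 1, at -220. Of all 32851 RefSeq promoter windows, 7.15% held at least 1 E-box and 0.0244% (8 windows) at least 4. The Cdk4 window also held 3 GC boxes, of which the last 2 overlap by 1 base, and the Cdk6 window none. At least 1 GC box was in 35.7% of all windows and at least 3 in 10.7%. A match gives letters alone, and binding was not measured. Windows were matched for 6 of the 10 genes; Ccnd1, Ccnd2, Cdkn1c and Rb1 had none.

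**Figure D2:**
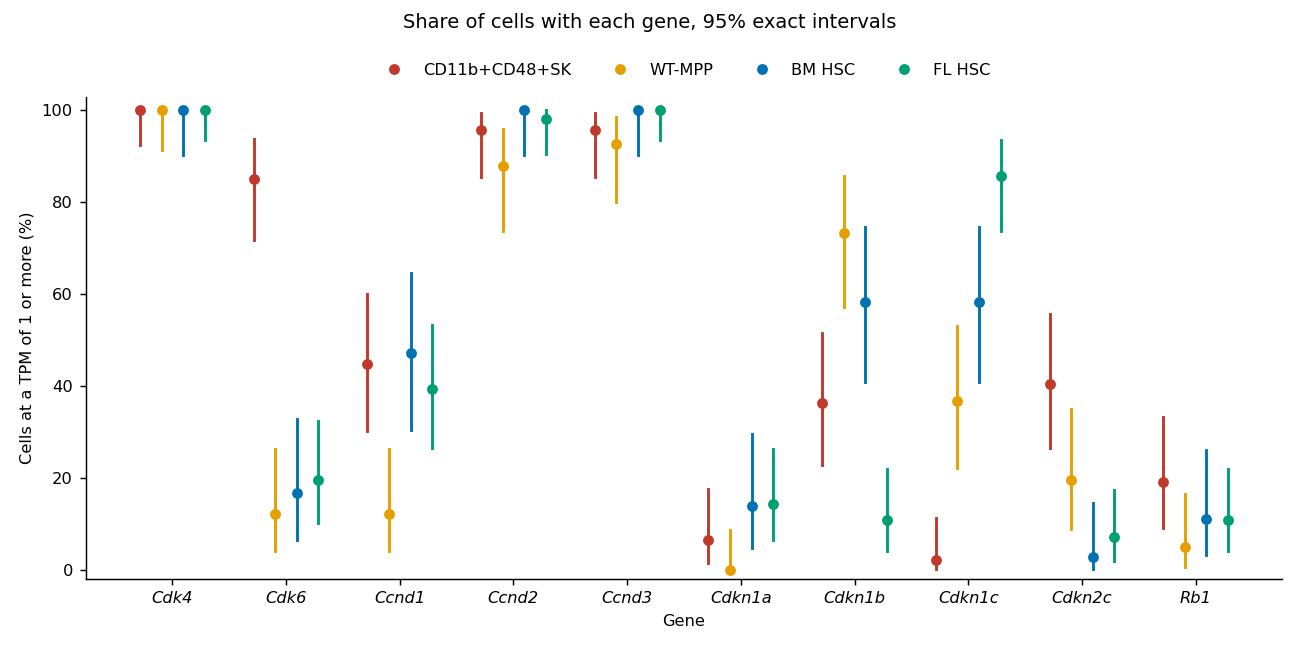
Share of cells with each gene at 1 TPM or above (vertical axis, percent) in the 4 populations, with 95% exact intervals as bars. Cdk6 stood at 85.1% in CD11b+CD48+SK cells and at 12.2 to 19.6% elsewhere, and Cdkn1c ran from 2.13% in CD11b+CD48+SK cells to 85.7% in FL HSC.

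Of the D cyclins, Ccnd2 and Ccnd3 were present in most cells of every population, at 87.8% or more for Ccnd2 and 92.7% or more for Ccnd3, while the share with Ccnd1 was 47.2% at most. No cell lacked all 3 D cyclins, which allows shares of up to 5.36% for FL HSC, 8.33% for BM HSC, 7.32% for WT-MPP and 6.38% for CD11b+CD48+SK cells. The median of the summed D cyclins was highest in BM HSC, at 716 TPM, followed by FL HSC (522), WT-MPP (367) and CD11b+CD48+SK cells (314.7).

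Ccnd3, at chr17:47505051-47599691 on the plus strand, was the main D cyclin by level and took between 64.4% of the summed D cyclin TPM in BM HSC and 72.3% in FL HSC. It ran from 37 to 928 TPM with a median of 339 in FL HSC, and from 3.66 to 1101 with a median of 457 in BM HSC. In WT-MPP it ran from 0 to 886 with a median of 176.8, and in CD11b+CD48+SK cells from 0 to 926 with a median of 210.3. Both stem cell populations were above the others at the median, and the ranges overlapped. WT-MPP had 13 cells under 10 TPM and CD11b+CD48+SK cells 7, against 2 BM HSC and no FL HSC.

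For Ccnd3, CD11b+CD48+SK minus BM HSC was -1.64, minus FL HSC -1.45, and WT-MPP minus BM HSC was -2.46. With log2 of the mean TPM these became -0.98, -0.62 and -1.04. CD11b+CD48+SK minus WT-MPP was 0.82 as a difference of mean logs, while the mean levels of 246.9 and 237 TPM were close.

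Ccnd2, at chr6:127125162-127152193 on the minus strand, was likewise highest in BM HSC, where it was present in all 36 cells, from 10.7 to 604 TPM with a median of 228. Its medians elsewhere were 100 TPM in FL HSC (0.255 to 395), 82.9 TPM in WT-MPP (0.131 to 443) and 90 TPM in CD11b+CD48+SK cells (0.244 to 305). These 3 populations were close to each other, and their ranges reached both below and into that of BM HSC. The difference from BM HSC was -1.05 for FL HSC, -2.06 for WT-MPP and -1.44 for CD11b+CD48+SK cells, and that of FL HSC was -0.92 with log2 of the mean TPM or with a pseudocount of 10.

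Ccnd1, at chr7:144929931-144939925 on the minus strand, was, like the other D cyclins, at its lowest share in WT-MPP, and the gap was wider than theirs. It was found in 39.3% of FL HSC (interval 26.5 to 53.2%) and 47.2% of BM HSC (30.4 to 64.5%), in 12.2% of WT-MPP (4.08 to 26.2%), and in 44.7% of CD11b+CD48+SK cells (30.2 to 59.9%). The highest cell was at 234.5 TPM for FL HSC, 244.6 for BM HSC, 106.6 for WT-MPP and 84.6 for CD11b+CD48+SK cells, and the medians lay between 0 and 0.592 TPM. In WT-MPP 1 cell held 55.5% of the summed Ccnd1. CD11b+CD48+SK minus WT-MPP was 1.78 and WT-MPP minus BM HSC -1.99, or 0.77 and -0.96 with a pseudocount of 10. CD11b+CD48+SK minus BM HSC was -0.21 and minus FL HSC 0.39.

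Cell by cell, Ccnd2 and Ccnd3 without Ccnd1 was the most frequent set in each population, found in 58.9% of FL HSC, 52.8% of BM HSC, 73.2% of WT-MPP and 48.9% of CD11b+CD48+SK cells. All 3 D cyclins were together in 39.3% of FL HSC, 47.2% of BM HSC and 42.6% of CD11b+CD48+SK cells (interval 28.3 to 57.8%), against 7.32% of WT-MPP (1.54 to 19.9%). Counting any TPM above 0, all 3 were in 77.8% of BM HSC, 26.8% of WT-MPP and 59.6% of CD11b+CD48+SK cells. Ccnd3 was the highest D cyclin in 87.5% of FL HSC, 80.6% of BM HSC, 63.4% of WT-MPP and 68.1% of CD11b+CD48+SK cells, and Ccnd2 in nearly all others. Ccnd1 was the highest in 1 cell, a CD11b+CD48+SK cell.

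**Figure D3:**
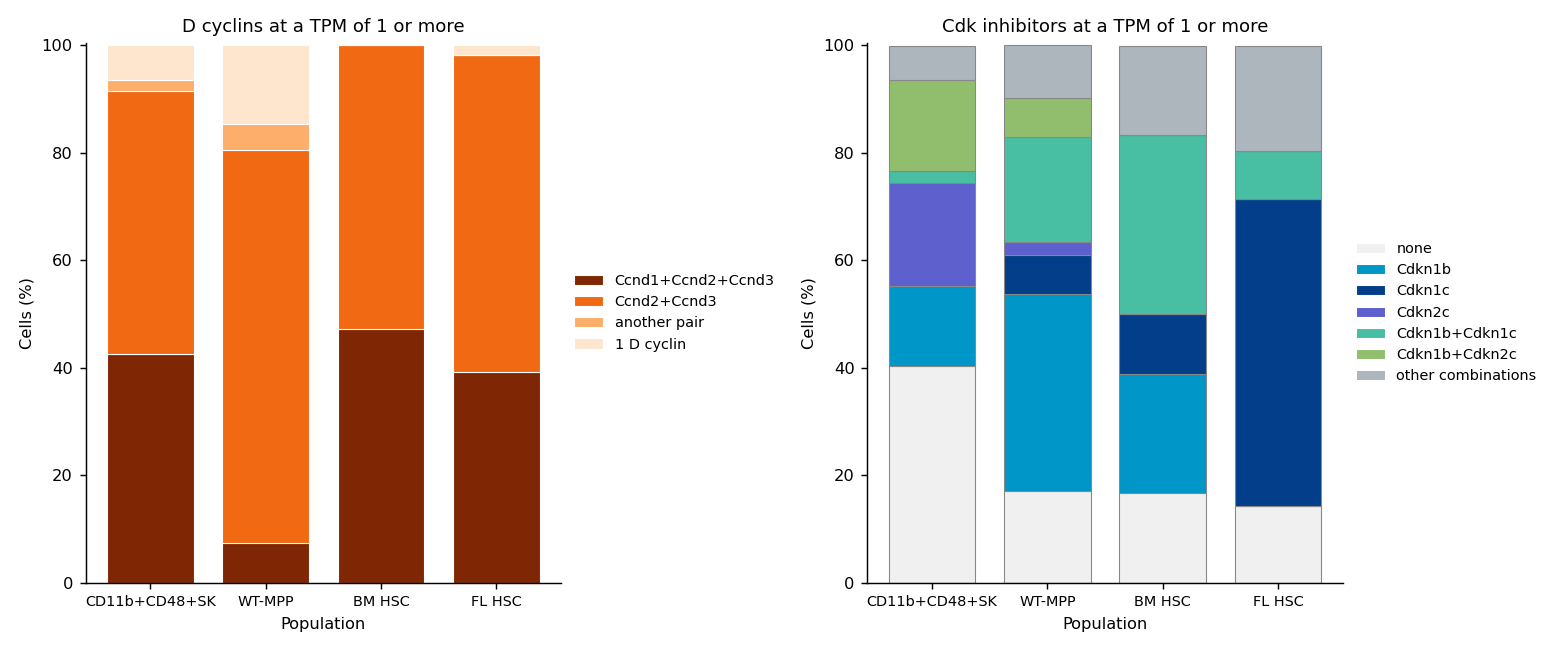
Stacked bars of the share of cells (percent) with each combination of D cyclins (left) and of the 4 Cdk inhibitors (right) at 1 TPM or above, in each population. All 3 D cyclins were together in 7.32% of WT-MPP and 39.3 to 47.2% of the others. None of these 4 inhibitors was present in 40.4% of CD11b+CD48+SK cells, and Cdkn1c was the only 1 of them in 57.1% of FL HSC.

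The populations differed in which Cdk inhibitor was present. Among the 4 inhibitors of the set, the 1 found in most cells was Cdkn1c in FL HSC and Cdkn1b in WT-MPP. In BM HSC these 2 were alike. In CD11b+CD48+SK cells Cdkn2c (40.4%) and Cdkn1b (36.2%) were close. Each of them was in 24 of these cells at any TPM above 0. In the shared range of genes present they stood at 41.7% and 45.8%. The INK4 inhibitor Cdkn2d, outside these 4, was present in 47 FL HSC, 30 BM HSC, 28 WT-MPP and 25 CD11b+CD48+SK cells. Cdkn1c, an imprinted gene at chr7:143458339-143461050 on the minus strand, was present in 48 of 56 FL HSC (85.7%, interval 73.8 to 93.6%), 21 of 36 BM HSC (58.3%, 40.8 to 74.5%), 15 of 41 WT-MPP (36.6%, 22.1 to 53.1%) and 1 of 47 CD11b+CD48+SK cells (2.13%, 0.0539 to 11.3%).

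That 1 cell was at 68.7 TPM of Cdkn1c, and the next highest CD11b+CD48+SK cell was at 0.411. In WT-MPP the median was 0 with a highest cell at 463 TPM, in BM HSC it was 19.7 with a highest cell at 1035, and in FL HSC it was 173.9 with a highest cell at 467. FL HSC formed a high group, 39 of 56 cells being at 100 TPM or more, while BM HSC were spread from 0 (9 cells) up to the highest single value. The mean TPM of Cdkn1c was 181.8 in FL HSC and 110.8 in BM HSC.

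For Cdkn1c, CD11b+CD48+SK minus WT-MPP was -1.62, minus BM HSC -3.65 and minus FL HSC -6.33, and in the last pair 11 of the 10856 filtered genes had a lower difference. In the shared range of genes present these were -1.41, -3.85 and -6.22, and with a pseudocount of 10 the first was -0.81. FL HSC minus BM HSC was 2.68, which became 0.71 with log2 of the mean TPM, and WT-MPP minus BM HSC was -2.03. The summed level of erythroid markers was also higher in FL HSC, mostly through Hbb-b1, with a mean of 1430 TPM against 98.3 to 155 in the adult populations. Of 5 listed 4 are in the table, with a summed level of 31.6 to 4955 TPM (median 1004) in FL HSC and medians of 0 to 1.15 in the adult populations, whose highest cells reached 2854. Epor was found in 41.1% of FL HSC and 0 to 19.4% of the adult populations. Klf1 was in 3.57% of FL HSC and 6.38% of CD11b+CD48+SK cells, and Hba-a1 in 1.79% of FL HSC and 2.44% of WT-MPP. Their part in the Cdkn1c result was not tested.

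Cdkn1b, at chr6:134920401-134925513 on the plus strand, was present in 10.7% of FL HSC (interval 4.03 to 21.9%), 58.3% of BM HSC (40.8 to 74.5%), 73.2% of WT-MPP (57.1 to 85.8%) and 36.2% of CD11b+CD48+SK cells (22.7 to 51.5%). Its median was 0 in FL HSC (0 to 18.6 TPM), 2.40 TPM in BM HSC (0 to 133.4), 12.2 TPM in WT-MPP (0 to 155.8) and 0.403 TPM in CD11b+CD48+SK cells (0 to 102.3). FL HSC were the low population for this gene by share and by highest cell. The ranges of single cells overlapped among the other 3, while the intervals of the shares of WT-MPP and CD11b+CD48+SK cells did not.

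For Cdkn1b, CD11b+CD48+SK minus WT-MPP was -1.76, minus BM HSC -0.65 and minus FL HSC 1.34. FL HSC minus BM HSC was -2.0, with 116 of the 10856 filtered genes lower, and WT-MPP minus BM HSC was 1.11. In the shared range of genes present, CD11b+CD48+SK minus WT-MPP was -0.46 and WT-MPP minus BM HSC 0.55. With a pseudocount of 10 all 4 differences past 1 were smaller in size than 1, at -0.81, 0.49, -0.77 and 0.53.

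Cdkn2c, at chr4:109660876-109667189 on the minus strand, was present in 4 of 56 FL HSC (7.14%, interval 1.98 to 17.3%), 1 of 36 BM HSC (2.78%), 8 of 41 WT-MPP (19.5%, 8.82 to 34.9%) and 19 of 47 CD11b+CD48+SK cells (40.4%, 26.4 to 55.7%). It was a gene of few but high cells. Where present, its median was 111 TPM in WT-MPP and 104.8 TPM in CD11b+CD48+SK cells, with highest cells at 459 and 373 TPM, while the highest BM HSC was at 1.35 TPM and the highest FL HSC at 72.6. Both stem cell populations were thus low, and the other populations overlapped.

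For Cdkn2c, CD11b+CD48+SK minus WT-MPP was 1.08, minus BM HSC 2.29 and minus FL HSC 2.04, and WT-MPP minus BM HSC was 1.21. In the shared range of genes present the first 3 were 0.09, 2.55 and 2.66, and with log2 of the mean TPM the first was 0.44. The separation from WT-MPP thus did not hold at 1 in these settings, and that from both stem cell populations did.

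Cdkn1a, at chr17:29090976-29100727 on the plus strand, a known target of p53, was present in few cells of any population. It was found in 8 FL HSC (14.3%), 5 BM HSC (13.9%), none of the 41 WT-MPP, which allows a share of up to 7.32%, and 3 CD11b+CD48+SK cells (6.38%). The highest cell was at 46.7 TPM for FL HSC, 401.7 for BM HSC and 91.5 for CD11b+CD48+SK cells, and the medians were 0 throughout. The intervals of the shares overlapped, and no difference of mean log2(TPM+1) reached 1 in size. With log2 of the mean TPM, in which single high cells weigh more, CD11b+CD48+SK minus WT-MPP was 1.99, CD11b+CD48+SK minus BM HSC -2.39, FL HSC minus BM HSC -2.09 and WT-MPP minus BM HSC -4.38, the last being -1.29 with a pseudocount of 0.1.

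The promoters of Cdkn1b and of the first listed start of Cdkn2c are shown in the same way, as the inhibitors with windows whose shares differed most between populations. They lie at chr6:134920151-134920450 on the plus strand and chr4:109666707-109667006 on the minus strand.
Cdkn1b: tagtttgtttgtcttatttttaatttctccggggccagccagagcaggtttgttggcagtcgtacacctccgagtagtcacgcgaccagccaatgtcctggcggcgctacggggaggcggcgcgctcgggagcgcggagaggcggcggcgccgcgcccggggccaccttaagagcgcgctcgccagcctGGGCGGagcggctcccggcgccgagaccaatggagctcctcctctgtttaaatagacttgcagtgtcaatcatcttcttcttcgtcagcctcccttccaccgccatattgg
Cdkn2c: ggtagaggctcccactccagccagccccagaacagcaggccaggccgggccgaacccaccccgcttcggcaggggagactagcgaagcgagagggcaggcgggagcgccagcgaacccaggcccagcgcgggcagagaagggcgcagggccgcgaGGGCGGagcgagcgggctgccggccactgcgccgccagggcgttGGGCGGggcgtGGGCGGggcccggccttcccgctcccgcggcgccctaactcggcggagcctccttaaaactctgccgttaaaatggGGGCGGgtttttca

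Neither of these windows held an E-box. Cdkn2c has another RefSeq window, not shown, that held 1 E-box, at 34 from its start, no GC box, and 44% G or C. The Cdkn1b window held 1 GC box and the Cdkn2c window shown 4, a number that 5.49% of all windows reached. The Cdkn2c window shown was 73.3% G or C and the Cdkn1b window 62%, against a median of 52.7% over all windows. None of the 4 windows shown held the E2F motifs TTTCGCGC or TTTGGCGC, which 0.813% of all windows held on either strand, and of the 4 the Cdk6 window alone held TATAAA, as 13.6% of all windows did.

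Cdkn1a, Cdkn1b, Cdkn1c and Cdkn2c were counted together in single cells, without Cdkn2d. None of these genes was present in 14.3% of FL HSC (interval 6.38 to 26.2%) and 16.7% of BM HSC (6.37 to 32.8%). The share with none was 17.1% in WT-MPP (7.15 to 32.1%) and 40.4% in CD11b+CD48+SK cells (26.4 to 55.7%). Exactly 2 of these genes were present in 44.4% of BM HSC and in 25 to 26.8% of the other populations. All 48 FL HSC with any of these genes had Cdkn1c, and 32 of these cells had no other of the set. Cdkn1b with Cdkn1c was the most frequent set in BM HSC, in 12 of 36 cells (33.3%, 18.6 to 51%), and Cdkn1b alone in WT-MPP, in 15 of 41 (36.6%, 22.1 to 53.1%). Among CD11b+CD48+SK cells, 9 had Cdkn2c alone, 8 had Cdkn1b with Cdkn2c and 7 had Cdkn1b alone. At a TPM above 0, none of these genes was found in 5.56% of BM HSC and 23.4% of CD11b+CD48+SK cells.

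By summed level over cells, Cdkn1c made up 96% of the inhibitors in FL HSC and 74.9% in BM HSC, and Cdkn2c 78.2% in CD11b+CD48+SK cells. In WT-MPP the sum was divided among Cdkn1c (38.8%), Cdkn2c (34%) and Cdkn1b (27.1%). The median of the summed inhibitors was 175.8 TPM in FL HSC (0 to 467), 85.7 TPM in BM HSC (0 to 1066), 40.1 TPM in WT-MPP (0 to 618) and 9.53 TPM in CD11b+CD48+SK cells (0 to 411). For both kinases together the median was 1032 TPM for FL HSC, 674.7 for BM HSC, 764.5 for WT-MPP and 1121 for CD11b+CD48+SK cells. Cdkn2d is not in the sum of inhibitors. Its mean TPM was 157.5 in FL HSC, 172.5 in BM HSC, 157.2 in WT-MPP and 77.1 in CD11b+CD48+SK cells. The means of the inhibitor sum were 189.3, 147.8, 102.5 and 60.7 in the same order.

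The log2 ratio of cyclins and kinases to the 4 inhibitors, without Cdkn2d, was taken with 1 TPM added to each sum. Its median was 3.09 in FL HSC (1.16 to 10.98), 3.99 in BM HSC (-1.48 to 10.86), 4.36 in WT-MPP (-2.11 to 10.78) and 7.49 in CD11b+CD48+SK cells (1.24 to 11.28). CD11b+CD48+SK cells were the highest at the median and FL HSC the lowest, although their medians of Cdk4 were close. The SD over cells was 2.66, 3.08, 3.03 and 3.06 in the same order, and the ranges overlapped. As a ratio of mean TPM, the ends of this order were 3.10 and 4.68. Whether FL HSC stay the lowest with Cdkn2d in the sum was not tested. The mean TPM of Cdkn2d was above that of the 4 inhibitors together in every population except FL HSC. The 4 inhibitors together exceeded the D cyclins in 5 FL HSC, 2 BM HSC, 8 WT-MPP and 2 CD11b+CD48+SK cells. They exceeded the kinases in 4 BM HSC, 5 WT-MPP and no other cell.

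Cdk6 and Cdkn1c were not found together in any CD11b+CD48+SK cell, 40 having Cdk6 without Cdkn1c, 1 the reverse and 6 neither. Since 1 of these cells had Cdkn1c, this count carries little. In FL HSC 10 of the 11 cells with Cdk6 also had Cdkn1c, in BM HSC 2 of 6 and in WT-MPP 1 of 5. Over all cells, Cdkn1c was in 48 of 56 FL HSC, 21 of 36 BM HSC and 15 of 41 WT-MPP. Cdk6 and its inhibitor Cdkn2c were together in 17 CD11b+CD48+SK cells (36.2%, interval 22.7 to 51.5%). Of the 19 cells with Cdkn2c 17 had Cdk6, which is near its share over all CD11b+CD48+SK cells, 40 of 47.

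Rb1, at chr14:73183673-73325822 on the minus strand, the substrate of the kinases, was present in few cells. Its share was 10.7% in FL HSC (interval 4.03 to 21.9%), 11.1% in BM HSC (3.11 to 26.1%), 4.88% in WT-MPP (0.596 to 16.5%) and 19.1% in CD11b+CD48+SK cells (9.15 to 33.3%). The highest cells were at 10.5, 29.1, 68.4 and 60.8 TPM in the same order, and all medians were 0. The intervals overlapped, and no difference of mean log2(TPM+1) reached 1, the widest being 0.47 for CD11b+CD48+SK minus WT-MPP, or 1.05 with a pseudocount of 0.1. With log2 of the mean TPM, CD11b+CD48+SK minus FL HSC was 1.43. Genes that overlap Rb1 were at higher levels: Rcbtb2 and Lpar6, which share 488 and 408 exonic bases with Rb1 on the opposite strand, had mean TPM of 29.9 to 91 and 35.4 to 144.8, against 0.603 to 3.32 for Rb1.

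**Figure D4:**
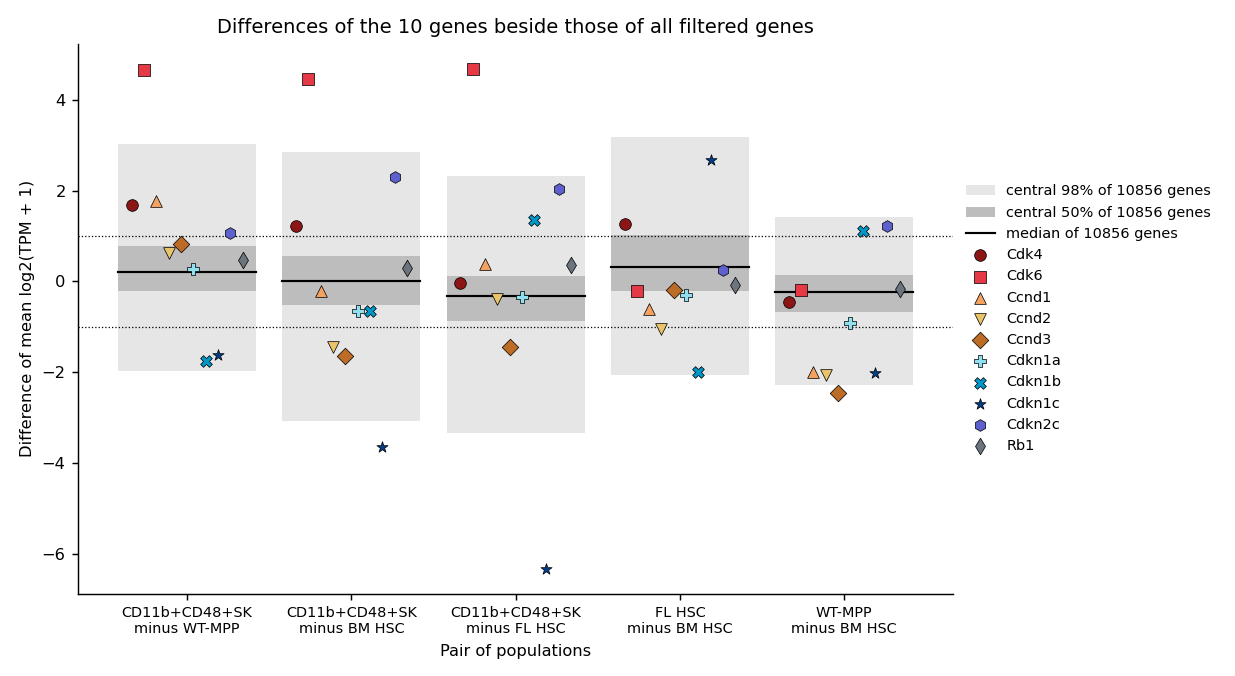
Difference of mean log2(TPM + 1) for each of the 10 genes (symbols) in 5 pairs of populations. Grey bands hold the central 98% and 50% of the 10856 filtered genes, black lines their median, and dotted lines mark 1 and -1. Cdk6 lay above the wide band in all 3 pairs with CD11b+CD48+SK cells, at 4.46 to 4.68, and Cdkn1c lay below it against BM HSC (-3.65) and FL HSC (-6.33).

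Over the 10 genes, the median difference was 0.72 for CD11b+CD48+SK minus WT-MPP, beside 0.21 over all filtered genes. It was -0.43 against BM HSC beside -0.001, and 0.16 against FL HSC beside -0.32. For FL HSC minus BM HSC it was -0.20 beside 0.31, and for WT-MPP minus BM HSC -0.69 beside -0.22. In none of the 50 pairings of a gene with a pair of populations were the ranges of single cells apart.

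Other genes of the pathway, a list of 30 written by role, were counted beside the 10. The table holds 28 of them, and 27 passed the filter. In CD11b+CD48+SK minus WT-MPP 12 of these were higher by 1 or more and 1 was lower, where the background is 19% and 5.01%, and in the shared range of genes present they were 4 and 5. The highest were Cks1b (3.67), a partner of Skp2 in the turnover of Cdkn1b, Tfdp1 (2.59), the dimer partner of E2F proteins, and Ccne2 (2.36), a cyclin of Cdk2, and the lower gene was Mycn (-2.62). Against BM HSC 8 were higher and 4 lower, with a background of 13.4% and 11.8%, but 6 and 7 in the shared range and 4 and 7 with log2 of the mean TPM. They were led by Myc (2.01), Ccne2 (1.70) and Ccna2 (1.48) and by Mycn (-4.69), the INK4 inhibitor Cdkn2d (-2.21) and the Rb1 relative Rbl2 (-1.14). Against FL HSC Myc alone was higher (4.86), and 7 were lower, led by Mycn (-5.44), Cdkn2d (-2.73) and Cul4a (-1.78), with a background of 4.02% and 20.9%. These were 3 and 6 in the shared range.

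In FL HSC minus BM HSC 12 of the 27 were higher and 1 lower, with a background of 25.6% and 5.44%. The counts were 6 and 6 in the shared range of genes present, and 6 and 3 with log2 of the mean TPM. The highest were Cks1b (2.12), Mnat1 (2.03) and Cdk7 (1.91), the last pair being subunits of the Cdk-activating kinase, and the lower gene was Myc (-2.85). In WT-MPP minus BM HSC 7 of the 27 lay past 1 in either direction, with a background of 17.2%. Cdk7 was higher (1.26), and Cks1b (-2.49), Mycn (-2.07) and E2f1 (-1.95) were the lowest. Past 1 in the shared range lay 9, of which 4 were higher. Myc was present in 30 of 56 FL HSC (mean 121 TPM), 35 of 36 BM HSC (467.7), all WT-MPP (552) and all CD11b+CD48+SK cells (756). Cdkn2d was present in 47 FL HSC, 30 BM HSC, 28 WT-MPP and 25 CD11b+CD48+SK cells, with mean TPM of 157.5, 172.5, 157.2 and 77.1.

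Of 12 p53 target genes listed beside Cdkn1a, 10 passed the filter. In CD11b+CD48+SK minus WT-MPP 5 were higher by 1 or more, led by Btg2 (1.74), Bax (1.40) and Phlda3 (1.19), and Ccng1 (-1.30) and Mdm2 (-1.01) were lower, where the background is 19% and 5.01%. Among cells of the shared range 1 was higher and 2 were lower, and with a pseudocount of 10 no gene of the list passed 1. Against BM HSC Bax (1.86) and Aen (1.44) were higher and Plk2 (-2.91), Ccng1 (-1.56) and Mdm2 (-1.46) lower, beside 13.4% and 11.8% of the filtered genes, and with log2 of the mean TPM the counts were 0 and 3. Against FL HSC Plk2 (-1.15) alone passed 1, where 4.02% and 20.9% of the filtered genes did. In FL HSC minus BM HSC Bax (2.20), Bbc3 (1.45) and Aen (1.06) were higher and Plk2 (-1.76) lower, beside 25.6% and 5.44% of the filtered genes, and with log2 of the mean TPM the counts were 0 and 3. In WT-MPP minus BM HSC Plk2 (-2.76) and Btg2 (-1.27) were lower and no other gene of the list passed 1, where 17.2% of the filtered genes did in either direction. The list held genes past 1 in both directions in 3 of the 5 pairs.

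Within populations, the members were related weakly to each other. Spearman's rho was taken over the cells of 1 population for members present in at least 20% of its cells, giving 10 pairs for FL HSC, 15 for BM HSC, 10 for WT-MPP and 21 for CD11b+CD48+SK cells. The medians over pairs were 0.0523, 0.0519, 0.0714 and 0.121. In BM HSC, with 36 cells, rho was 0.394 for Ccnd3 with Cdk4, -0.404 for Cdk4 with Cdkn1b and -0.314 for Ccnd3 with Cdkn1b, and given the number of genes present these were 0.381, -0.423 and -0.371. These pairs had the largest rho in size of the 15. In WT-MPP the same pairs were at 0.0685, 0.0743 and 0.0841, and in CD11b+CD48+SK cells at 0.329, -0.195 and -0.192. Ccnd3 with Cdk4 was at -0.00718 in FL HSC. The points share their sort and library preparation and differ in genes present, so these coefficients are descriptions.

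A mean of log2(TPM+1) over 39 proliferation genes, none of them a member, was set beside each gene in the same way. Its median over cells was 2.75 for FL HSC, 1.42 for BM HSC, 1.12 for WT-MPP and 2.93 for CD11b+CD48+SK cells, and within a population it followed the number of genes present at rho 0.522 to 0.794. Ccnd3 was the member closest to it in CD11b+CD48+SK cells (rho 0.599 over 47 cells, 0.452 given genes present) and in WT-MPP (0.450 over 41 cells, 0.428). With the number of list genes present in place of their mean, Ccnd3 had 0.548 in CD11b+CD48+SK cells. In WT-MPP it then had 0.164, under Cdk4 at 0.303, so that its lead there did not hold. With the mean, Ccnd3 had a rho of 0.264 in BM HSC (0.121 given genes present) and 0.0323 in FL HSC, with 56 cells. For Cdk4 rho was 0.290 in FL HSC, 0.457 in BM HSC, 0.199 in WT-MPP (-0.0139 given genes present) and 0.352 in CD11b+CD48+SK cells. For Cdk6 in CD11b+CD48+SK cells it was 0.122, or -0.05 given genes present. For Ccnd2 it was -0.282 in FL HSC, 0.0981 in BM HSC, -0.199 in WT-MPP and -0.0286 in CD11b+CD48+SK cells.

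**Figure D5:**
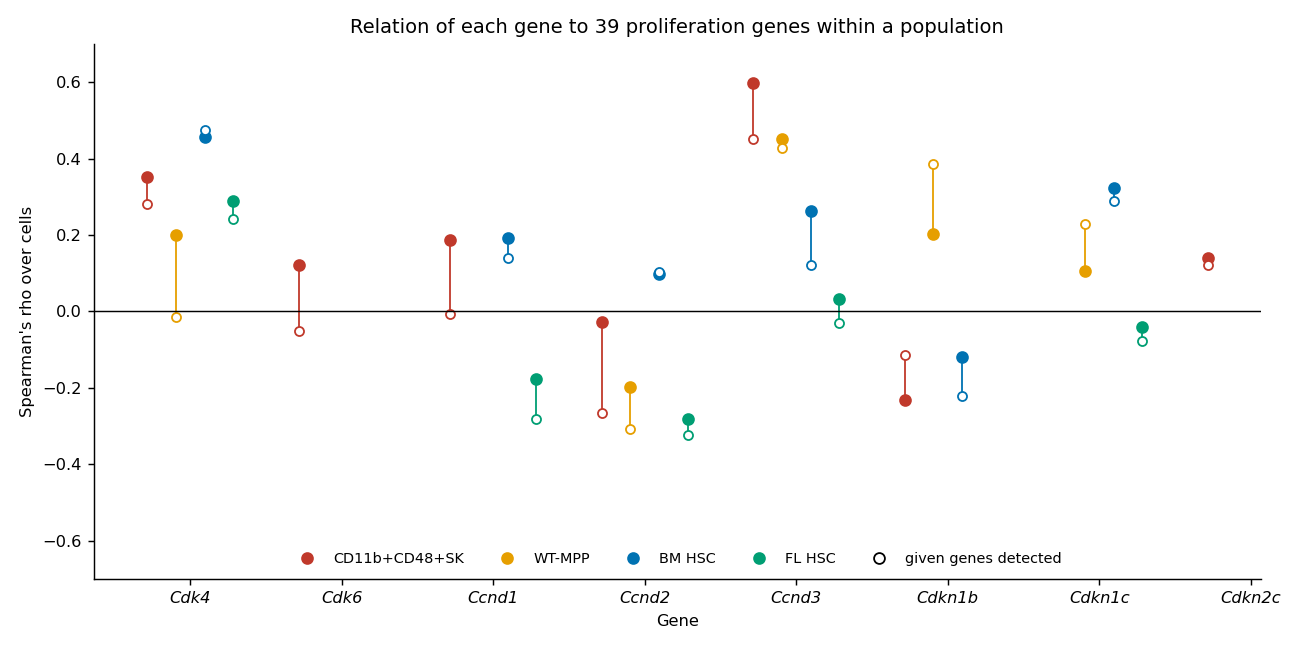
Spearman's rho over the cells of 1 population between each gene and the mean of 39 proliferation genes (filled), and the same given the number of genes present, marked as detected (open), for genes in at least 20% of the cells. Ccnd3 reached 0.599 in CD11b+CD48+SK cells and 0.450 in WT-MPP, and 0.0323 in FL HSC.

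The genes most alike to a member were sought by Pearson's r over all 180 cells after each population's mean had been subtracted, among 7515 genes present in at least 20% of the cells. For Cdk4 they were Atp5g2 (0.511), Hnrnpf (0.474) and Ywhaq (0.455), and for Ccnd3 Pebp1 (0.430), Aes (0.423) and Psmd7 (0.421). Cdk4 and Ccnd3 had r of 0.319 and 0.348 with the number of genes present itself. For Cdk6 the nearest gene was Rnaseh2c (0.339), beside an r of 0.337 with the number of genes present. For Ccnd1 it was Srm (0.329), for Ccnd2 Fam96a (0.336), for Cdkn1b Nfia (0.302) and for Cdkn1c Dexi (0.310). Over the compared genes the median r lay from -0.0135 for Cdkn1b to 0.0814 for Ccnd3. The 99th percentile of r lay from 0.172 for Cdkn1b to 0.332 for Cdk4. The named genes are the highest of a long search, and what r such a search gives by itself was not tested. Cdkn1a, Cdkn2c and Rb1 were present in too few cells for this search.

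Several of the 10 genes overlap another gene on the opposite strand, and whether the counting used strand is not given in the sources used here. Cdk4 shares 641 exonic bases with Tspan31, which was present in 34 to 54 cells of each population at mean TPM of 212 to 267.8, and over cells the rho of Cdk4 with Tspan31 lay between -0.198 and 0.0483. Ccnd3 shares 361 bases with Bysl, at mean TPM of 8.40 to 20.8, and Ccnd2 368 bases with 9330179D12Rik, at 0.0702 to 14.3. Ccnd1 shares 1100 bases with LTO1, Cdkn1c 625 with Gm44732, Cdk6 368 with Gm17590 and Cdkn1a 273 with AC167363.2. None of these overlapping genes is in the expression table under that name, so their levels are unknown. Reads from all these shared bases cannot be told apart without strand.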

How the data were processed

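Single cells were sorted, their cDNA was amplified (Discover-sc WTA Kit V2) and libraries were made with TruePrep (Vazyme). The authors aligned reads with HISAT2 (2.1.0) and estimated expression with StringTie (1.3.4), with mm10 named as the build in the submitters' processing notes, and deposited 1 table of TPM. Strand use and annotation are not given in the sources used here. TPM holds no read counts, so no count model was used. Of 181 columns, 180 match a sample by title, and 1 column with no sample was not used.

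Computation used Python 3.11.15, numpy 2.4.6, pandas 2.3.3, scipy 1.17.1 and matplotlib 3.10.9. Values were averaged over cells as log2(TPM+1), genes reaching 1 TPM in 10% of the cells of any population were kept (10856), and the procedure was tested on simulated data. Cells were not filtered, and doublets were not sought, since each library was 1 sorted cell. With each population counted as 1 sample, no test was possible. Gene positions come from GENCODE M21 and promoters from RefSeq.

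The members, the lists and the naming rule were chosen with earlier results of these data known. The rule named the 10 members, at most 3 genes at each end of each pair past a difference of 1 in the pathway and p53 lists, the 3 genes most correlated with a member present in 20% of cells, and overlapping genes. Alternatives covered the pseudocount, averaging, scaling, filter, thresholds, coefficients and a shared range of genes detected.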

Additional observations from a re-analysis of the deposited data

How the results depend on the processing

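No paired analysis was possible because a cell's number only names it, each population is 1 sample and no result comes from a test. All 27 differences of a single gene past 1 kept their sign in all 135 alternative values. Of the 120 alternative shares of cells, 23 lay outside the exact interval of the share at a TPM of 1: 10 at a TPM of 10 or more, 8 at any TPM above 0 and 5 in the shared range of genes detected. Depth is unknown, so a gene listed at 0 may be missed rather than absent.

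With a pseudocount of 10, the number of the 10 genes past 1 in CD11b+CD48+SK minus WT-MPP was 2 higher and 0 lower, in FL HSC minus BM HSC 0 lower and in WT-MPP minus BM HSC 0 higher. In the shared range of genes detected it was 2 higher and 1 lower in CD11b+CD48+SK minus WT-MPP, 1 higher in FL HSC minus BM HSC and 1 higher in WT-MPP minus BM HSC. With log2 of the mean TPM it was 1 lower in CD11b+CD48+SK minus FL HSC, 1 higher in FL HSC minus BM HSC and 1 higher in WT-MPP minus BM HSC. The cause of these shifts was not tested, and the median-ratio scaling left every such count within 1.5 times. Leaving out the filter could not change these counts, because all 10 genes passed it.

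Counted at any TPM above 0, Cdk4 with Cdk6 was in 26.8% of WT-MPP. All 3 D cyclins were then in 59.6% of CD11b+CD48+SK cells, 26.8% of WT-MPP and 77.8% of BM HSC. None of Cdkn1a, Cdkn1b, Cdkn1c and Cdkn2c was then found in 23.4% of CD11b+CD48+SK cells and 5.56% of BM HSC. At a TPM of 10 or more, 34.1% of WT-MPP had none of these inhibitors. Among the 14 FL HSC in the shared range 0% had both kinases. The median rho with the proliferation genes in CD11b+CD48+SK cells was -0.00566 given genes detected, the median rho among members in BM HSC was 0.217 as Pearson's r, and in FL HSC 0.169 in the shared range; the cause was not tested. The partial rho among members given genes detected was chosen after seeing the data, and moved no median by more than 0.1.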
